A study of Mus musculus with 24 samples.

Results

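The circadian clock genes described here are 7: the activators Arntl (also called Bmal1), Clock and Npas2, the repressors Cry1 and Cry2, and the nuclear receptor Rora with the transcription factor Nfil3. They were listed by symbol, with earlier results of these data known, and are 7 of the 43432 gene identifiers in the count table. RNA was sequenced from whole hearts of C57BL/6 mice in 24 libraries, 4 in each of 6 groups. The groups were sedentary mice, mice given a running wheel for 8 weeks, mice at 2 weeks and at 8 weeks after transverse aortic constriction (TAC, an operation that narrows the aorta so that the left ventricle pumps against a higher pressure), and sham-operated mice belonging to each TAC group. The 2-week TAC hearts and their shams carry the label LVH, for left ventricular hypertrophy, and the 8-week TAC hearts and their shams carry the label HF, for heart failure; the sham groups are called sham-LVH and sham-HF. No genotype or transgene is named. Sex, age and time of day at collection are not given, nor is the time after surgery for the shams, so a difference in collection time between groups and a difference by treatment cannot be told apart. Nothing in the labels says that replicates were separate litters or days, so the tests measure the spread between these libraries.

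In the mammalian clock, the protein of Arntl pairs with that of Clock, or with that of its relative Npas2, and the pair binds E-box sequences and switches on the Per and Cry genes, the Rev-erb genes Nr1d1 and Nr1d2, and output genes such as Dbp, Tef and Hlf. Per and Cry proteins return to the nucleus and block the pair, which closes the daily loop. A second loop sets the level of Arntl itself: Ror proteins such as that of Rora activate it, and Rev-erb proteins repress it, through the same element, the RORE; Clock, Npas2, Nfil3 and Cry1 are also known to be regulated through ROREs. Nfil3 (E4bp4) represses through D-boxes, the sites that Dbp, Tef and Hlf activate. Heart muscle cells run this clock themselves, and Arntl RNA swings widely over the day in the heart while Clock and Rora RNA swing little.

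The stretches of promoter that hold these elements are shown because they separate Arntl and Nfil3, with a RORE near a start, from Cry1 and Cry2, with E-box spellings. They come from RefSeq promoters on GRCm38.p6, each running from 250 bases before to 50 bases after the start of transcription. All 7 members were matched, Arntl with 2 promoters, Clock with 3 and the others with 1. Of the 2 Arntl promoters, only that shown here holds a RORE spelling. Capitals mark a motif on either strand; positions count from the start site. The Arntl stretch lies on the plus strand of chromosome 7, at chr7:113207529-113207558, from position 19 to 48; the Nfil3 stretch on the minus strand at chr13:52981040-52981089, from -50 to -1; the Cry1 stretch on the minus strand at chr10:85185085-85185144, from -90 to -31; and the Cry2 stretch on the minus strand at chr2:92434200-92434259, from -190 to -131.
Arntl: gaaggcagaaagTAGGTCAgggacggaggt
Nfil3: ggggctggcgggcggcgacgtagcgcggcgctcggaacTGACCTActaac
Cry1: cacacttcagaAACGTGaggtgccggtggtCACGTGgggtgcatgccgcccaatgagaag
Cry2: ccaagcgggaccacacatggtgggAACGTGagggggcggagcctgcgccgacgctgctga
The Arntl and Nfil3 stretches hold the RORE spelling TAGGTCA, on the plus strand of Arntl and, read as TGACCTA, on the opposite strand of Nfil3. That spelling occurs in 2.61% of the 32851 promoters in the table. The Cry1 stretch holds an E-box, CACGTG, present in 7.15% of promoters, and the variant E-box CACGTT, read as AACGTG, present in 4.68%. The Cry2 stretch holds the variant alone. The second RORE spelling TGGGTCA (reverse TGACCCA; 3.98% of promoters) and the D-box spelling TTANNTAA (6.00%) occur in none of the members' windows, and none of the spellings searched occurs in the windows of Clock, Npas2 or Rora. A match says only that these letters are present.

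The 24 libraries held 16802939 to 39512101 estimated counts, of which mitochondrially encoded genes took 50.7% to 73.6%, leaving 5949640 to 12932067 counts for all other genes. No pair of libraries had identical columns. The 8 cardiomyocyte markers, headed by the heavy chain gene Myh6 with a median of 10928 CPM, were present in every library, and the lymphocyte markers summed to less than 1 CPM in each.

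Levels are given as CPM, the usual abbreviation for counts rescaled to the same library size, after the libraries were normalized to each other. Divided by the length of the annotated exons, the members' medians over all hearts were 2.57 CPM per kilobase for Clock, 2.32 for Rora, 1.69 for Nfil3, 1.65 for Cry2, 1.116 for Cry1, 0.469 for Arntl and 0.301 for Npas2. Arntl varied most: its highest heart was 55.0-fold above its lowest in CPM, on 6 to 268 counts, so its lowest values rest on few reads. The ratio of highest to lowest heart was 10.4 for Npas2 (7 to 89 counts), 5.75 for Nfil3, 2.86 for Cry2, 2.47 for Cry1, 1.92 for Clock and 1.66 for Rora. Arntl and Clock, near the extremes of this range, encode partners in the same protein pair.

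Arntl read 4.00, 8.34, 10.7 and 4.56 CPM in sedentary replicates 1 to 4, 0.879, 0.828, 0.359 and 2.76 in running hearts, and 0.641, 0.786, 0.221 and 1.49 in sham-LVH hearts. It read 3.05, 1.35, 3.24 and 3.79 CPM at 2 weeks of TAC, 11.7, 7.37, 12.2 and 4.15 in sham-HF hearts, and 4.26, 10.3, 3.27 and 7.17 at 8 weeks of TAC. Running and sham-LVH hearts were lowest, 2-week TAC hearts came next, and the other groups were highest with wide overlap. In order of the group means, sham-LVH (0.786 ± 0.530 CPM, SD, n = 4) was followed by running (1.206 ± 1.06), TAC at 2 weeks (2.86 ± 1.05), TAC at 8 weeks (6.25 ± 3.17), sedentary (6.90 ± 3.19) and sham-HF (8.86 ± 3.81). Each group in that order overlapped the next, and the same was true of the ordered groups of every other member.

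**Figure D1:**
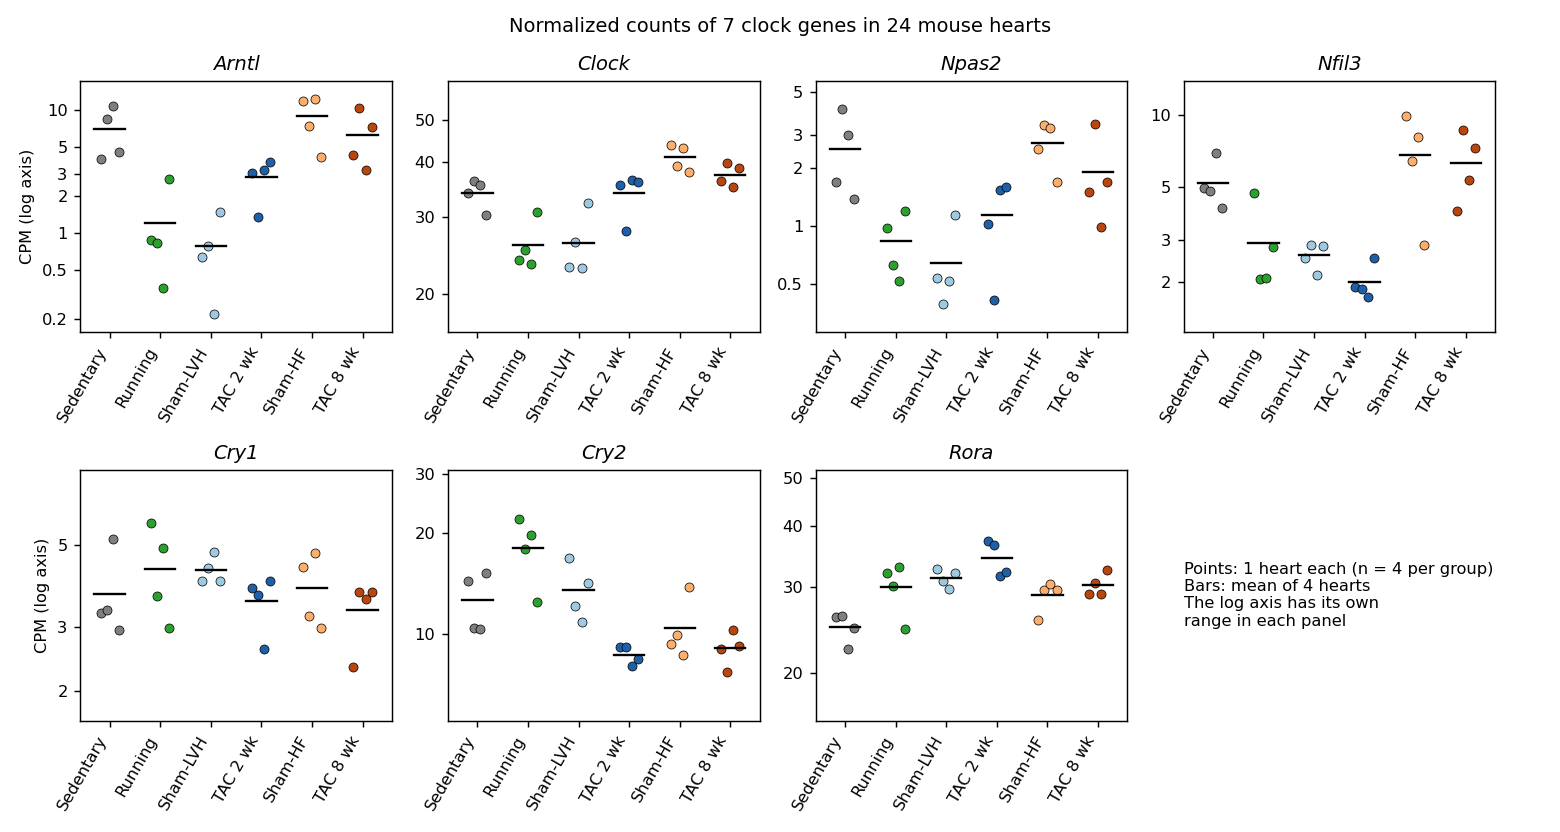
Level of each of the 7 clock genes in every heart, in CPM on a log axis, by group (4 hearts each, points for hearts, bars for group means). Arntl, Clock, Npas2 and Nfil3 had lower means in running and sham-LVH hearts than in sedentary and sham-HF hearts. The ratio of highest to lowest heart was smallest for Rora (1.66), Clock (1.92) and Cry1 (2.47).

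The control groups differed from each other in these genes. Library numbers run 1 to 8 in sedentary and running hearts, 9 to 16 in LVH groups and 17 to 24 in HF groups. Each pair of groups thus forms a cohort with its own run of numbers. A difference between control groups therefore cannot be told apart from a difference between cohorts or in library order. Sham-HF hearts had higher Arntl, Clock, Npas2 and Nfil3 than sham-LVH hearts, although both were sham-operated: 4 of the 7 members were higher and 0 lower (edgeR quasi-likelihood test, adjusted p under 0.05), in a comparison that called 3.64% of 13656 genes (2.20% higher, 1.44% lower). Arntl differed by 3.50 on the log2 scale (SE 0.508, 11.3-fold, edgeR adjusted p = 0.0167), and the lowest sham-HF heart, at 4.15 CPM, exceeded the highest sham-LVH heart, at 1.49. Npas2, the alternative partner of Arntl, read 0.534, 0.393, 0.517 and 1.139 CPM in sham-LVH hearts and 2.53, 3.38, 3.26 and 1.695 in sham-HF hearts. Its groups did not overlap either, and the difference was 2.05 (SE 0.310, 4.14-fold, edgeR adjusted p = 0.00862).

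Clock read 23.0, 26.3, 22.9 and 32.3 CPM in sham-LVH hearts and 43.9, 39.2, 43.1 and 38.1 in sham-HF hearts. The shift was much smaller than that of Arntl, 0.67 (SE 0.109, 1.59-fold, edgeR adjusted p = 0.0107), but again without overlap. Nfil3, the D-box repressor, read 2.53, 2.862, 2.14 and 2.85 CPM in sham-LVH hearts and 9.94, 6.46, 8.12 and 2.865 in sham-HF hearts. Sham-HF replicate 4 lay barely above the highest sham-LVH heart, and the other 3 lay well above them. The difference was 1.43 (SE 0.310, edgeR adjusted p = 0.0372). Non-overlapping values occurred for 4 of the 7 members, beside 12.8% of all genes tested. Cry1 (-0.14, SE 0.161), Cry2 (-0.36, SE 0.167) and Rora (-0.10, SE 0.081) did not pass the test, with edgeR adjusted p from 0.231 to 0.656.

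The Nfil3 call was lost in 7 of the 8 fits that left out 1 library, all but that without sham-HF replicate 4 (edgeR adjusted p from 0.0628 to 0.131), and the Arntl call without sham-LVH replicate 2 (edgeR adjusted p = 0.0602) or sham-HF replicate 3 (edgeR adjusted p = 0.0541). With the replicate number as a block, Arntl was at 3.45 (edgeR adjusted p = 0.0834) and Nfil3 at 1.34 (edgeR adjusted p = 0.0688), so that 2 members were called. That block joins same-numbered hearts of different cohorts, which nothing in the labels pairs. The Nfil3 call was also lost without normalization factors (edgeR adjusted p = 0.0721) and without the low-count filter (edgeR adjusted p = 0.112). Macrophage markers moved with the sham groups: their 8 genes summed to 144 to 223 CPM in sham-LVH hearts and 106 to 160 in sham-HF hearts, and 4 of the 8 were lower in sham-HF; their part in the result was not tested. In whole hearts, fewer cells of a type and less RNA per cell cannot be told apart.

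Sham-LVH hearts also differed from unoperated sedentary hearts, in the same genes and with Rora in addition. Arntl, Clock, Npas2 and Nfil3 were lower and Rora was higher in sham-LVH, 5 of 7 members in a comparison that called 20.0% of 13856 genes (10.1% higher, 9.89% lower). Arntl differed by -3.13 (SE 0.519, 8.76-fold lower, edgeR adjusted p = 0.00781), with every sham-LVH heart below every sedentary heart. Npas2 in sedentary hearts read 1.69, 4.08, 2.99 and 1.38 CPM, all above the sham-LVH values already given, and differed by -1.94 (SE 0.392, 3.84-fold lower, edgeR adjusted p = 0.00770). Nfil3 in sedentary hearts read 4.95, 4.83, 6.94 and 4.08 CPM, again all above sham-LVH, and differed by -1.03 (SE 0.174, edgeR adjusted p = 0.00362).

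Clock in sedentary hearts read 34.1, 36.2, 35.5 and 30.2 CPM, and the sham-LVH replicate at 32.3 lay among them. Its difference was -0.40 (SE 0.114, edgeR adjusted p = 0.0235). Rora, the RORE activator, read 26.1, 26.1, 22.4 and 24.8 CPM in sedentary hearts and 32.6, 30.9, 29.7 and 32.0 in sham-LVH hearts. These did not overlap, and the difference was 0.31 (SE 0.0881, 1.237-fold, edgeR adjusted p = 0.0255), the only 1 of the 9 comparisons in which Rora passed as reported. Values did not overlap for 4 of the 7 members, beside 23.9% of all genes tested. Cry1 (0.20, SE 0.174, edgeR adjusted p = 0.432) and Cry2 (0.077, SE 0.157, edgeR adjusted p = 0.760) did not pass.

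Leaving out 1 library ended the Clock call in 4 of 8 fits (sedentary replicates 2 and 3, sham-LVH replicates 2 and 3) and the Rora call in 4 of 8 (sedentary replicates 3 and 4, sham-LVH replicates 2 and 4), with edgeR adjusted p from 0.0530 to 0.0830; without normalization factors both calls were also lost (0.0694 and 0.0560). Macrophage markers were higher in sham-LVH, 6 of 8 called, at 144 to 223 CPM summed against 117 to 141 in sedentary hearts. The brown fat list summed to 115 to 187 CPM against 83.9 to 97.5, mostly from Cox7a1, and its defining gene Ucp1 was at 0 in 23 of the 24 libraries; the part of the macrophage markers in the result was not tested.

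Sham-HF and sedentary hearts, by contrast, showed no called member: 0 of 7, in a comparison that called 4.26% of 13503 genes. Clock was closest, at 0.26 (SE 0.0811, edgeR adjusted p = 0.0865), and its 4 sham-HF values lay above all sedentary values; this was the case for 1 of 7 members and for 14.4% of all genes. Arntl stood at 0.37 (SE 0.446), Npas2 at 0.10 (SE 0.337), Nfil3 at 0.39 (SE 0.341) and Rora at 0.20 (SE 0.0826). At an unadjusted p under 0.05 by edgeR there were 2 members, Clock and Rora, beside 21.7% of all genes, and DESeq2 called 0 of 7. These baseline comparisons share libraries: each control group enters 2 of the 3, sham-LVH is also the control for TAC at 2 weeks, sham-HF for TAC at 8 weeks, and sedentary for running.

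**Figure D2:**
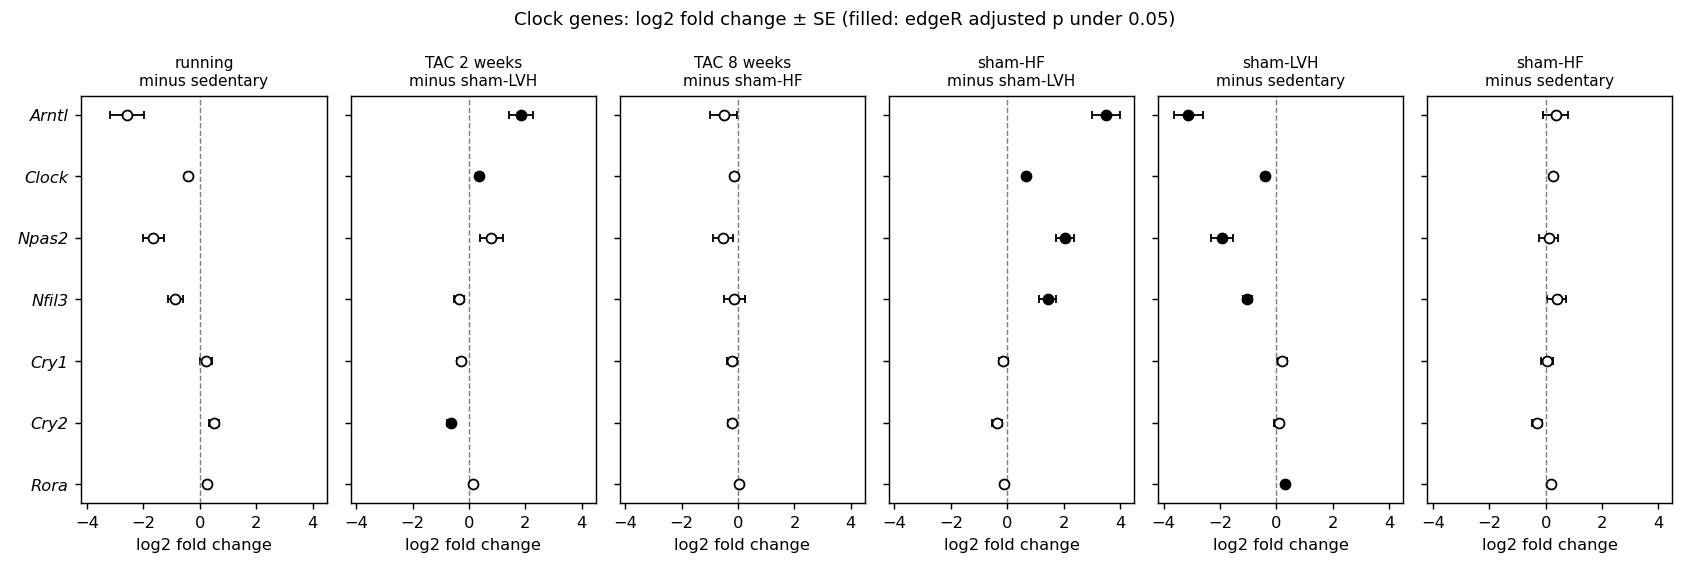
Log2 fold change of each of the 7 clock genes with its standard error (horizontal bar) in the comparisons of running, TAC and control groups; filled points passed edgeR's adjusted p under 0.05. The Arntl points for sham-HF minus sham-LVH (3.50) and sham-LVH minus sedentary (-3.13) lie farther from 0 than that for TAC at 2 weeks (1.85).

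Running asks what a physiological load does to these genes. After 8 weeks of wheel running, 0 of 7 members passed, and so did 0% of the 13824 genes tested with edgeR, although 665 genes (4.81%) had an unadjusted p under 0.05; DESeq2 called 9 genes. Of the members, 6 had an unadjusted p under 0.05 by edgeR, with 4 lower in running (Arntl, Clock, Npas2, Nfil3) and 2 higher (Cry2, Rora). Arntl in all 4 running hearts lay below all 4 sedentary hearts, a difference of -2.57 (SE 0.597, edgeR adjusted p = 0.858). Npas2 read 0.982, 0.631, 0.519 and 1.197 CPM in running hearts, also below every sedentary heart, a difference of -1.64 (SE 0.378, edgeR adjusted p = 0.719). Npas2 alone among the members was called by DESeq2, at an adjusted p of 0.0301. The groups did not overlap for these 2 of 7 members, beside 3.03% of all genes tested.

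Clock read 23.9, 25.2, 23.4 and 30.7 CPM in running hearts, and replicate 4 alone reached the sedentary range; the difference was -0.41 (SE 0.106, edgeR adjusted p = 0.858). Running replicate 4 was also the highest running heart in Arntl and Npas2 and the lowest in Rora and Cry2. Nfil3 read 4.70, 2.05, 2.08 and 2.81 CPM, where replicate 1 lay among the sedentary hearts (-0.87, SE 0.266, edgeR adjusted p = 0.924). Cry2, the repressor, read 14.4, 10.4, 10.4 and 15.2 CPM in sedentary and 22.1, 18.0, 19.8 and 12.5 in running hearts. Running replicate 4 again fell inside the sedentary range, and the difference was 0.50 (SE 0.179, edgeR adjusted p = 0.995). Rora read 32.0, 30.2, 32.9 and 24.6 CPM in running hearts (0.25, SE 0.102, edgeR adjusted p = 1.00), and Cry1 differed by 0.22 (SE 0.226).

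The 2-week TAC comparison concerns the hypertrophied heart under pressure load. Arntl and Clock were higher and Cry2 was lower at 2 weeks of TAC than in sham-LVH hearts, 3 of 7 members in a comparison that called 33.2% of 14224 genes (17.1% higher, 16.1% lower). The share of members called is near that background. Arntl differed by 1.85 (SE 0.437, 3.61-fold, edgeR adjusted p = 0.00761). TAC replicate 2, at 1.35 CPM, fell below the highest sham-LVH heart, at 1.49, and the other 3 TAC hearts lay above 3 CPM. Clock read 35.5, 27.8, 36.5 and 36.1 CPM at 2 weeks of TAC, with the same replicate 2 low and inside the sham range; the difference was 0.37 (SE 0.119, edgeR adjusted p = 0.0267). Cry2 read 9.14, 9.17, 8.06 and 8.40 CPM against 16.8, 12.1, 10.8 and 14.2 in sham-LVH. Its groups did not overlap, as for 1 of 7 members and 32.4% of all genes, and it fell by 0.64 on the log2 scale (SE 0.128, 1.56-fold lower, edgeR adjusted p = 0.00173).

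Npas2 read 1.03, 0.413, 1.55 and 1.61 CPM at 2 weeks of TAC, replicate 2 being lowest here too (0.80, SE 0.410, edgeR adjusted p = 0.159). Nfil3 read 1.91, 1.88, 1.73 and 2.52 CPM, the lowest group mean of that gene (-0.36, SE 0.169, edgeR adjusted p = 0.123). Cry1 (-0.28, SE 0.146, edgeR adjusted p = 0.160) and Rora (0.13, SE 0.0855, edgeR adjusted p = 0.264) did not pass. Npas2 passed with the replicate number as a block (0.82, edgeR adjusted p = 0.0385), without sham-LVH replicate 4 (1.226, edgeR adjusted p = 0.0433) and without TAC replicate 2 (1.06, edgeR adjusted p = 0.0347).

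The Clock call was lost without any of 6 of the 8 libraries (sham-LVH replicates 1 to 3, TAC replicates 1, 3 and 4, edgeR adjusted p from 0.0577 to 0.0799), and the Arntl call without the low-count filter (edgeR adjusted p = 0.0535). Without normalization factors the median of all genes moved to 0.41 and the calls to 6995 higher and 614 lower, from 2428 and 2289, and Cry2 stood at -0.22 (edgeR adjusted p = 0.212), Nfil3 at 0.057 and Cry1 at 0.14. In that setting Rora (0.55, edgeR adjusted p = 0.00126) and Npas2 (1.201, edgeR adjusted p = 0.0129) passed. Cell type markers moved with this comparison: cardiomyocyte markers summed to 12905 to 16255 CPM at 2 weeks of TAC against 22517 to 27173 in sham-LVH (8 of 8 lower), and fibroblast markers to 2129 to 3466 against 490 to 722 (8 of 8 higher). Macrophage markers summed to 271 to 356 CPM at 2 weeks of TAC (7 of 8 higher). The part of these cell types in the result was not tested. A gene on the opposite strand shares 295 exon bases with Cry2 and had 1 to 12 counts per library. Another shares 82 with Rora and had 0 to 2. An antisense gene that shares 33 exon bases with Arntl is not among the counted genes. The strand setting of the counting is not given, so reads in the shared bases cannot be assigned.

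At 8 weeks of TAC, no member was called against sham-HF: 0 of 7, in a comparison that called 29.6% of 13621 genes, and 0 members had an unadjusted p under 0.05 by edgeR, beside 40.6% of all genes, or passed with DESeq2. The lowest sham-HF heart in Arntl, 4.15 CPM, and the highest TAC heart, 10.3, cross, and the difference was -0.52 (SE 0.463, edgeR adjusted p = 0.451). Clock read 36.2, 39.8, 35.2 and 38.8 CPM at 8 weeks of TAC (-0.15, SE 0.0807, edgeR adjusted p = 0.165), Npas2 1.501, 3.42, 0.994 and 1.701 (-0.53, SE 0.351, edgeR adjusted p = 0.284), and Nfil3 3.97, 8.69, 5.34 and 7.31 (-0.14, SE 0.378, edgeR adjusted p = 0.823). TAC replicate 2 was the highest heart of its group in all 4 of these genes. Without it, Npas2 was lower at 8 weeks of TAC by -0.99 (SE 0.258, edgeR adjusted p = 0.0115).

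Cry2 read 9.34, 9.97, 8.67 and 13.8 CPM in sham-HF and 9.05, 7.73, 10.3 and 9.19 at 8 weeks of TAC, with overlap (-0.22, SE 0.144, edgeR adjusted p = 0.260). Rora read 25.7, 29.6, 30.4 and 29.6 CPM and 29.1, 30.6, 29.0 and 32.5 (0.049, SE 0.0823, edgeR adjusted p = 0.693), and Cry1 differed by -0.21 (SE 0.186, edgeR adjusted p = 0.413). Without normalization factors the median of all genes moved to 0.33, the calls to 6075 higher and 568 lower from 2032 and 2000, and Rora to 0.38 (edgeR adjusted p = 0.0044). Cardiomyocyte markers summed to 17746 to 18845 CPM at 8 weeks of TAC and 23246 to 26670 in sham-HF, and fibroblast markers to 1065 to 1623 and 405 to 557.

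The TAC effects were then compared with each other and with the running effect. The effect of 2-week TAC minus that of running was higher for Arntl, Clock and Npas2 and lower for Cry2, 4 of 7 members in a comparison that called 19.1% of 14729 genes (9.50% higher, 9.56% lower). Arntl differed by 4.42 (SE 0.818, edgeR adjusted p = 0.00210), made up of 1.85 for TAC and -2.57 for running. Npas2 differed by 2.44 (SE 0.611, edgeR adjusted p = 0.00938), Clock by 0.78 (SE 0.166, edgeR adjusted p = 0.00232) and Cry2 by -1.15 (SE 0.236, edgeR adjusted p = 0.00205). The control arms of these 2 effects differed from each other in Arntl, Clock and Npas2, as given above. Each effect comes from its own cohort, so a difference between effects cannot be told apart from a difference between cohorts. Without normalization factors the median of all genes stood at 0.48, the calls moved to 4506 higher and 214 lower from 1399 and 1408, and Cry2 at -0.67 lost its call (edgeR adjusted p = 0.0550). Nfil3 did not pass as reported (0.51, SE 0.325, edgeR adjusted p = 0.307), but passed in that setting (1.01, edgeR adjusted p = 0.0159) and without running replicate 1 (0.83, edgeR adjusted p = 0.0344).

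The 8-week TAC effect minus the 2-week effect passed for 0 of 7 members, in a comparison that called 1.36% of 14463 genes; 3 members had an unadjusted p under 0.05 by edgeR, beside 19.1% of all genes. Clock stood at -0.52 (SE 0.146, edgeR adjusted p = 0.0706) and Arntl at -2.37 (SE 0.719, edgeR adjusted p = 0.109), and DESeq2 called both (adjusted p = 0.0288 and 0.0379). Npas2 also had an unadjusted p under 0.05 by edgeR, at -1.32 (SE 0.595, edgeR adjusted p = 0.237). Clock also passed with the replicate number as a block (edgeR adjusted p = 0.0447) and without sham-LVH replicate 4 (edgeR adjusted p = 0.0244). The 8-week TAC effect minus the running effect passed for 0 of 7 members beside 11.1% of 14252 genes, with 2 members at an unadjusted p under 0.05 by edgeR, beside 26.4% of all genes. Arntl stood at 2.07 (SE 0.800, edgeR adjusted p = 0.123) and Cry2 at -0.72 (SE 0.251, edgeR adjusted p = 0.0738; DESeq2 adjusted p = 0.0462). Both passed without running replicate 4, Arntl at 2.83 (edgeR adjusted p = 0.0467) and Cry2 at -0.86 (edgeR adjusted p = 0.0178).

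Because a ratio inside a library does not depend on scaling, Arntl was also set against Cry2, activator against repressor. The ratios here were taken on estimated counts, with a small constant added to each count. The log2 ratio of Arntl to Cry2 was -0.963 ± 0.965 in sedentary hearts (SD, n = 4), -4.22 ± 1.48 in running and -4.33 ± 0.980 in sham-LVH. It was -1.70 ± 0.721 at 2 weeks of TAC, -0.336 ± 1.01 in sham-HF and -0.669 ± 0.895 at 8 weeks of TAC. Running hearts spanned -5.71 to -2.17 and sham-LVH hearts -5.50 to -3.23, below the sedentary span of -1.85 to 0.046. The log2 ratio of Npas2 to Clock, the alternative partners, ran from -5.39 ± 0.474 in sham-LVH to -3.86 ± 0.616 in sedentary hearts, so Npas2 reads made up the smaller part everywhere. No p-value is given for these ratios. Over all hearts Arntl spanned 55.0-fold, on 6 to 268 counts, and Cry2 2.86-fold, so the ratio of Arntl to Cry2 mostly repeats Arntl. No ratio to Cry1, the other Cry repressor, was taken.

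Several of the genes on which the activators act differed with the opposite sign to Arntl. In sham-LVH minus sedentary, 3 of 8 other clock repressors were higher (Per3, Nr1d2, Bhlhe41), beside 10.1% of all genes, 0 were lower, and the list's median log2 difference was 0.68, beside -0.0050 over all genes. Of the 3 output activators that bind D-boxes, Tef and Hlf were higher, by 1.163 (SE 0.211, edgeR adjusted p = 0.00688) and 1.26 (SE 0.192, edgeR adjusted p = 0.00340), and Dbp stood at 1.224 (SE 0.446, edgeR adjusted p = 0.100). In sham-HF minus sham-LVH, 2 of the 8 repressors were lower, beside 1.44% of all genes. These were Nr1d2, by -0.73 (SE 0.142, edgeR adjusted p = 0.0205), and Ciart, a repressor of the Arntl pair, by -1.76 (SE 0.277, edgeR adjusted p = 0.0107). Tef and Hlf were also lower there, by -1.29 (SE 0.239, edgeR adjusted p = 0.0288) and -1.51 (SE 0.175, edgeR adjusted p = 0.00349). Nr1d1, a Rev-erb gene that represses through the RORE, passed in none of the 9 comparisons, and neither did Per1 or Per2. Nr1d1 had the same sign as Arntl in sham-LVH minus sedentary (-0.57, SE 0.405) and in sham-HF minus sham-LVH (0.23, SE 0.364). In sham-HF minus sham-LVH, Per1 (-0.0046, SE 0.394) and Bhlhe40 (0.0021, SE 0.210) hardly differed.

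Tef read 56.9, 29.9, 28.7 and 48.4 CPM in sedentary hearts, 77.1, 88.3, 101 and 62.7 in running, and 92.5, 92.9, 109 and 79.3 in sham-LVH. It read 57.3, 65.5, 49.6 and 44.1 CPM at 2 weeks of TAC, 26.8, 37.9, 28.9 and 57.8 in sham-HF, and 47.2, 27.0, 54.7 and 39.97 at 8 weeks of TAC. In each of the 6 groups the heart highest in Tef was the heart lowest in Arntl, such as sedentary replicate 1, sham-LVH replicate 3 and sham-HF replicate 4.

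**Figure D3:**
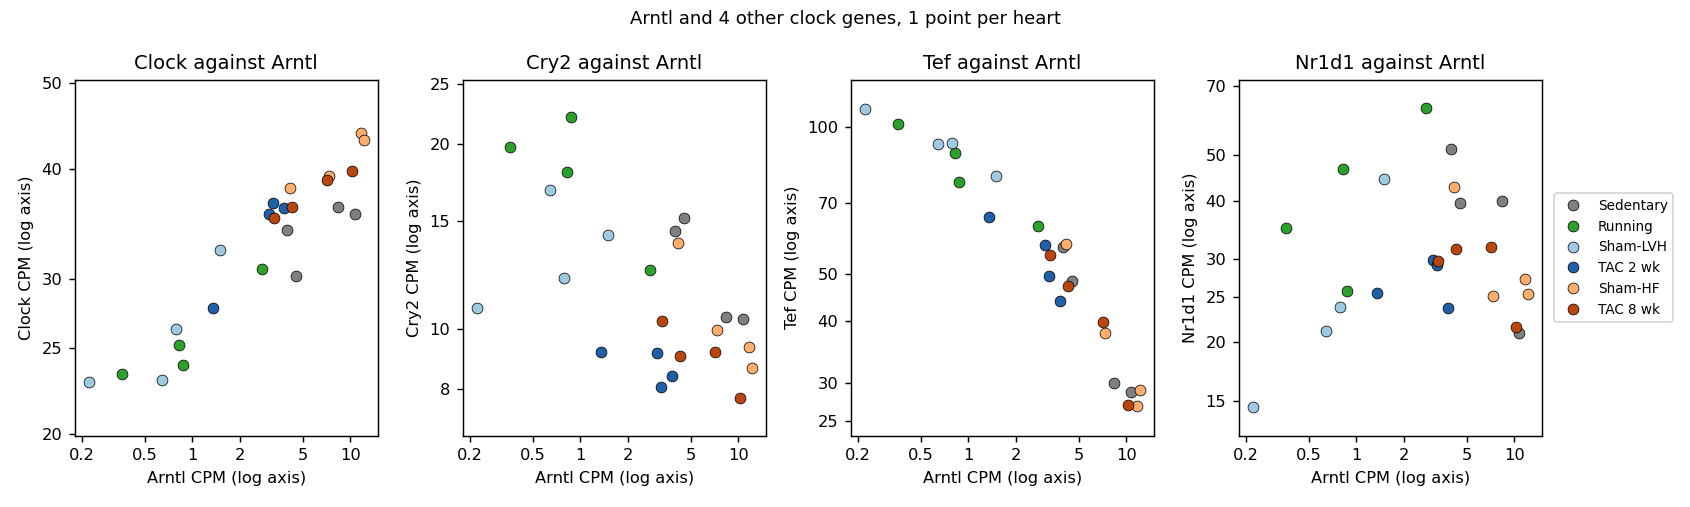
Clock, Cry2, Tef and Nr1d1 against Arntl in the same heart, CPM on log axes, 1 point per heart (24 hearts, coloured by group). Hearts with more Arntl had more Clock and less Tef, with Pearson correlations to Arntl of 0.862 and -0.863 after subtracting group means. The same correlation was weaker for Cry2, at -0.552, and the points for Nr1d1 scatter widely. The panels show CPM without that subtraction.

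At 2 weeks of TAC, 2 of the 8 repressors fell and 2 rose, beside 16.1% of all genes lower and 17.1% higher, counts near that background. Per3 fell by 0.53 on the log2 scale (SE 0.153, edgeR adjusted p = 0.0181) and Nr1d2 by 0.33 (SE 0.111, edgeR adjusted p = 0.0333). Bhlhe40 and Bhlhe41, repressors that bind E-boxes, rose, by 0.55 (SE 0.172, edgeR adjusted p = 0.0294) and 0.36 (SE 0.105, edgeR adjusted p = 0.0181). Tef fell by 0.79 (SE 0.135, edgeR adjusted p = 0.000588) and Hlf by 1.01 (SE 0.199, edgeR adjusted p = 0.00247). Of a mixed list of 14 genes taken as clock-controlled in the heart, 9 fell and 0 rose, beside 16.1% of all genes lower. The list's median was -0.85, beside -0.0021 over all genes. Klf15, a regulator of heart metabolism, fell by 1.26 (SE 0.173, edgeR adjusted p = 0.000220). The 8 cardiomyocyte markers had a median of -0.74 in the same comparison.

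At 8 weeks of TAC, Bhlhe40 was the 1 repressor of 8 that passed (0.63, SE 0.129, edgeR adjusted p = 0.00270), 0 of the 3 D-box activators passed, and of the 14 clock-controlled heart genes 5 were lower and 1 higher, beside 29.6% of all genes called in either direction. Of the 8 cardiomyocyte markers, 4 were lower in the same comparison. In running hearts 0 genes of these lists passed; Per3 stood at 1.36 (SE 0.352, edgeR adjusted p = 0.877), Ciart at 1.44 (SE 0.379), Tef at 0.99 (SE 0.239) and Dbp at 1.57 (SE 0.496), all positive where Arntl was negative. The effect of 2-week TAC minus that of running was lower for 3 of the 8 repressors (Per3, Nr1d2, Ciart), for all 3 D-box activators and for 10 of the 14 heart genes, beside 9.56% of all genes. In the same comparison 6 of the 8 cardiomyocyte markers were lower and 8 of the 8 fibroblast markers higher.

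**Figure D4:**
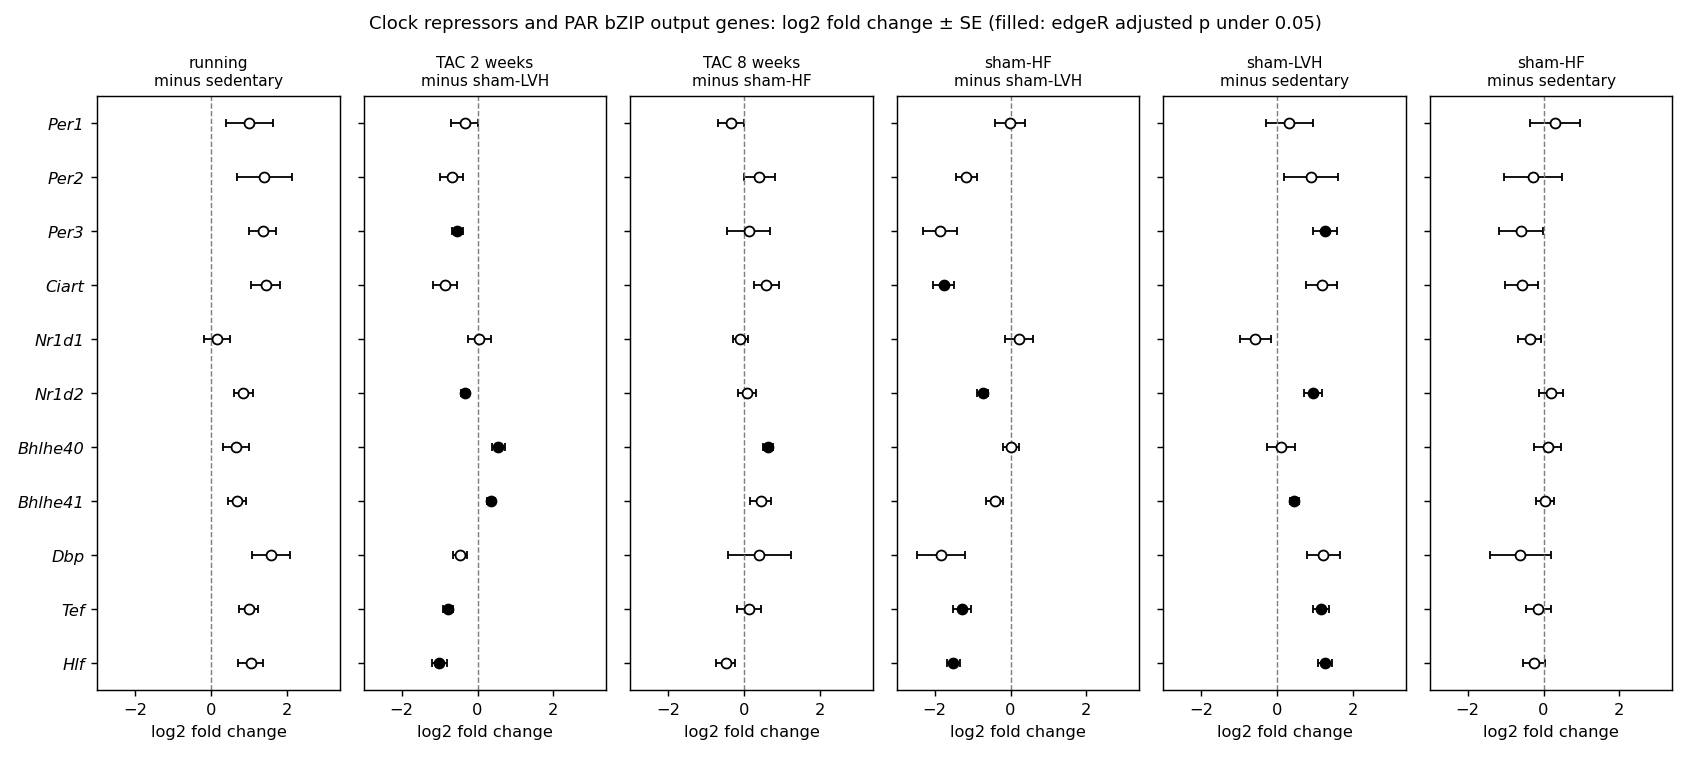
Log2 fold change with its standard error (horizontal bar) of 8 clock repressors and the 3 D-box output activators in the running, TAC and control comparisons; filled points passed edgeR's adjusted p under 0.05. Tef and Hlf were lower in sham-HF than in sham-LVH (-1.29 and -1.51) and higher in sham-LVH than in sedentary hearts (1.163 and 1.263), while Nr1d1 passed in no panel.

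The paralogues Arntl2 and Rorb passed in none of the 9 comparisons. By group mean, Arntl2 stayed between 0.848 and 1.38 CPM. Of a list of 9 genes, made up of Timeless and genes of clock protein turnover, 8 were tested. At 2 weeks of TAC 1 was higher (Timeless) and 2 lower (Btrc and Usp2), a share near the 33.2% of all genes called. Usp2, a deubiquitinase and clock output, fell by 1.06 (SE 0.0953, edgeR adjusted p = 5.17e-06). Among the lists' genes Nampt, the enzyme that feeds NAD synthesis under clock control, was called in 7 of 9 comparisons, more than any other. Its means were 51.5 ± 3.403 CPM in sedentary hearts (SD, n = 4), 70.9 ± 15.1 in running, 105 ± 9.32 in sham-LVH, 53.6 ± 7.16 at 2 weeks of TAC, 77.6 ± 10.4 in sham-HF and 60.1 ± 8.00 at 8 weeks of TAC.

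Finally, the members were compared heart by heart after subtracting each group's mean log2 CPM, so that what remains is variation among hearts treated alike. These correlations are descriptions over 24 libraries, whose genes share depth and scaling. Of 10439 genes with a mean of at least 2 CPM, Clock was the gene most like Arntl (Pearson r = 0.862, Spearman rho = 0.858), followed by Trp53i11 (r = 0.852), Col5a3 (0.843), Adam19 (0.833) and Spon2 (0.825). Those most opposite were Tef (r = -0.863, rho = -0.916), Hlf (r = -0.848), Ephx1 (-0.845), Tspan4 (-0.844) and Mcrs1 (-0.782). Without the 2 libraries farthest from the median of Arntl, r was 0.823 for Clock and -0.894 for Tef. Within the exercise, 2-week and 8-week cohorts of 8 libraries each, r with Clock was 0.863, 0.895 and 0.962, and with Tef -0.863, -0.884 and -0.977.

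Among the members themselves, Arntl tracked Npas2 (r = 0.778) and Nfil3 (0.601), ran against Cry2 (-0.552) and Rora (-0.400), and had no clear relation to Cry1 (0.039). Cry1 went with Nfil3 (r = 0.654) and Cry2 with Rora (0.568). The genes most like Clock were Spon2 (r = 0.903), Arntl and Col5a3 (0.837), and those most like Npas2 were Spon2 (0.820), Irs1 (0.815) and Gramd4 (0.815). Nfil3 was most like Rnf19b (r = 0.835), Top1 (0.812) and Mosmo (0.811). The nearest gene to Cry2 was Per3, its partner in the repressor complex (r = 0.776), then Cdk19 (0.719) and Hlf (0.689). Cry1 was nearest to Drg2 (r = 0.734), Ankrd13a (0.727) and Marveld1 (0.718), and Rora to Trim37 (0.792), Ccpg1 (0.749) and Zbtb33 (0.743). Across groups Cry1 passed in none of the 9 comparisons, and its 24 values lay between 2.32 and 5.74 CPM.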

How the data were processed

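For 24 hearts the authors deposited whole-number estimated counts, not normalized. The submitters' processing notes name FastQC, Salmon and the build mm9. Tool versions, annotation and strand handling: not given in the sources used here. Per the labels' protocols, ribosomal RNA was removed before library building. The table has 43432 gene identifiers, and 1 row naming no gene (0 counts) was left out; a GENCODE annotation of GRCm38 gave symbols for 42462. Tests used edgeR 4.0.16 (R 4.3.3) with TMM factors, filterByExpr and a robust two-sided quasi-likelihood F test (Benjamini-Hochberg over all genes tested; called at an adjusted p under 0.05), each comparison on its own groups without covariates. SE is the log2 fold change divided by the square root of F. CPM used TMM factors over all 24 libraries. DESeq2 1.42.0 and other settings were alternatives. The steps were tested on simulated data. The members, gene lists and tests were chosen with earlier results of these data known. All 7 members were tested in every comparison, though not every value is printed. Other clock genes came from fixed lists, beside the genes most like each member by correlation. A permutation test planned for ratios between members was left out, because the members had been chosen with results known.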

Additional observations from a re-analysis of the deposited data

Results flagged for a closer look

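In Clock, replicate 2 of the 2-week TAC hearts lay far below the other 3 of its group, at 27.8 CPM, with a gap to its neighbour of 0.881 of the group's range; without it the difference from sham-LVH was 0.45 (edgeR adjusted p = 0.0146). In Cry1, replicate 1 of the 8-week TAC hearts lay far below its group at 2.32 CPM, also with a gap of 0.881 of the range; without it the difference from sham-HF was -0.083 (edgeR adjusted p = 0.773). In all, 42 groups of 4 hearts were examined in this way, and chance sets apart about 1 group in 20.

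The effects of 2-week TAC and of running differed by the test of the difference itself for 4 members: 4.42 for Arntl, 0.78 for Clock, 2.44 for Npas2 and -1.15 for Cry2 on the log2 scale. In each the TAC value and the running value had opposite signs, and the control groups of the 2 effects differed in Arntl, Clock and Npas2.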

How the results depend on the processing

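Leaving out 1 library at a time, the number of members called ran from 2 to 4 for TAC at 2 weeks, 0 to 1 for TAC at 8 weeks, 2 to 4 for sham-HF minus sham-LVH, 3 to 5 for sham-LVH minus sedentary, 0 to 1 for the 8-week minus the 2-week TAC effect, 4 to 5 for the 2-week TAC minus the running effect, and 0 to 2 for the 8-week TAC minus the running effect. Values near 0 changed sign in these fits: Nfil3 (-0.38 to 0.086) and Rora (-0.013 to 0.070) at 8 weeks of TAC, Cry2 in sham-LVH minus sedentary (-0.052 to 0.18), Npas2 (-0.077 to 0.44) and Cry1 (-0.059 to 0.27) in sham-HF minus sedentary, and Nfil3 (-0.012 to 0.46) and Cry1 (-0.028 to 0.21) in the 8-week minus the 2-week TAC effect.

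DESeq2 called 1 member for running, 2 for the 8-week minus the 2-week TAC effect and 1 for the 8-week TAC minus the running effect. Without normalization factors 1 member was called at 8 weeks of TAC, 3 in sham-LVH minus sedentary and 2 in the 8-week TAC minus the running effect. Without those factors, Nfil3 (0.057) and Cry1 (0.14) turned positive at 2 weeks of TAC, Clock (0.17), Nfil3 (0.18), Cry1 (0.11) and Cry2 (0.12) at 8 weeks, and Rora in the 2-week (0.37) and 8-week (0.20) TAC minus the running effect, while Cry1 turned negative in the 8-week minus the 2-week TAC effect (-0.035). The causes were not tested.

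The labels do not say that replicate numbers pair the hearts, and not every same-numbered pair correlated above 0.1, so no pairing was used. In none of these 3 comparisons did every heart correlate best with its own number. Correlations of same-numbered hearts' deviations ran from 0.060 to 0.501 for running (other numbers -0.536 to 0.333), 0.0023 to 0.294 for TAC at 2 weeks and -0.312 to 0.125 at 8 weeks. With the replicate number as a block, 2 members were called in sham-HF minus sham-LVH and 1 in the 8-week minus the 2-week TAC effect, and 4 at 2 weeks of TAC. The other comparisons kept their number. Between control groups the replicate block joins hearts of different cohorts, so its blocks are arbitrary there. The block moved the count of all genes called from 0 to 47 for running and from 196 to 656 for the 8-week minus the 2-week TAC effect. With the earlier and later library numbers of each cohort as a block, Rora turned positive in the 8-week minus the 2-week TAC effect (0.011). That block moved the count of all genes called from 4032 to 2539 at 8 weeks of TAC. It moved from 196 to 47 for the 8-week minus the 2-week TAC effect, and from 497 to 589 for sham-HF minus sham-LVH. The 8-week TAC hearts hold library numbers 18 to 21 and sham-HF hearts 17 and 22 to 24, so treatment and library order nearly coincide there.

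Over the settings other than leaving out a library, the count of all genes called ran from 0 to 47 for running, 4593 to 7609 for TAC at 2 weeks (4717 as reported), 2539 to 6643 at 8 weeks (4032), 363 to 863 for sham-HF minus sham-LVH (497), 1890 to 3421 for sham-LVH minus sedentary (2771) and 101 to 864 for sham-HF minus sedentary (575). It ran from 30 to 656 for the 8-week minus the 2-week TAC effect (196), 2437 to 4720 for the 2-week TAC minus the running effect (2807) and 831 to 3198 for the 8-week TAC minus the running effect (1581). Leaving out 1 library, it ran from 57 to 1081 for sham-HF minus sham-LVH, 29 to 554 for sham-HF minus sedentary, 1387 to 3599 for sham-LVH minus sedentary and 22 to 654 for the 8-week minus the 2-week TAC effect. Arntl and Npas2 rest on as few as 6 and 7 counts in a library, which limits their lowest values.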
